A study of Mus musculus with 2 samples.

Results

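The genes described here are 8 C-type lectin receptor genes of mononuclear phagocytes, 5 of the Cd209 family (Cd209a, Cd209b, Cd209d, Cd209f and Cd209g) together with Mrc1, Clec10a and Mgl2. They were listed by name out of 31053 measured features, after earlier results of these data were known, and all 8 are present in both libraries. RNA was counted in single CD45+ (leukocyte) cells sorted from mouse hearts, with 1 library from mice with transverse aortic constriction (TAC), a surgical narrowing of the aorta that raises the pressure load on the left ventricle, and 1 library from sham-operated mice. Each library held cells of 6 mice, and all mice were wild-type C57BL/6 of 10 weeks. The 6 mice of a group are pooled in its library, so no spread between animals can be given, no test between the groups can be made, and every interval below is a 95% interval for counting error only. The 8 genes were followed in 3149 TAC and 3015 sham mononuclear phagocytes, out of 5601 TAC and 4169 sham barcodes kept.

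C-type lectin receptors bind sugars on microbes, dying cells and serum glycoproteins through a calcium-dependent domain and carry them into the cell. The mouse Cd209 genes are relatives of the human receptor DC-SIGN, which binds mannose- and fucose-rich glycans. Mrc1 encodes the macrophage mannose receptor CD206, whereas Clec10a and Mgl2 encode the galactose-type lectins MGL1 and MGL2, which bind galactose or N-acetylgalactosamine, so the set is not made of mannose receptors only. Mrc1, Clec10a and Mgl2 are widely used as markers of tissue-resident and interleukin-4-activated macrophages.

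In the GENCODE vM21 annotation of GRCm38, the assembly that mm10 names, the 5 Cd209 genes lie on chromosome 8, Mrc1 on chromosome 2, and Mgl2 and Clec10a beside each other on chromosome 11 with 18646 bases and 0 annotated genes between them. Cd209f (chr8:4102787-4105835, minus strand) and Cd209g (chr8:4134098-4137707, plus strand) point away from each other, with 28262 bases and 0 protein-coding genes between them. Their longest coding sequences are 89.2% identical over 582 aligned bases, against 64.7% to 79.1% for the other pairs of Cd209 genes that hold a listed member. Clec10a and Mgl2 are 89.5% identical over 910 coding bases. Of the 50-base words of the transcripts, 338 are shared by Cd209f and Cd209g and 242 by Clec10a and Mgl2, but 0 words of the last 300 bases are shared in either pair. The sources used here do not say how reads matching both genes of such a pair were counted, so a split between near-identical copies is uncertain away from the last 300 bases.

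The RefSeq promoter windows (GRCm38.p6, 250 bases before to 50 after the start) of Cd209f and Cd209g are shown because these genes were found in the same cells, as given further down. The capitals mark the longest run that is identical in both, 180 bases long. Mrc1 is shown for contrast, with GAGGAA, a core sequence bound by the myeloid factor PU.1, in capitals on either strand.
Cd209f, chr8:4105715-4106014, minus strand: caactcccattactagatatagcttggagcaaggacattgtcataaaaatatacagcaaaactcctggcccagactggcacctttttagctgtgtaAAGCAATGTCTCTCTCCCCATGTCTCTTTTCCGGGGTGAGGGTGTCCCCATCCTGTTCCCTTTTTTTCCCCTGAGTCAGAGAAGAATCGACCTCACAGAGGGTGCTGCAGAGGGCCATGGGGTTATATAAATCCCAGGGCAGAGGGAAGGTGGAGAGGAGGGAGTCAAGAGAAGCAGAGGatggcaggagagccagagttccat
Cd209g, chr8:4134486-4134785, plus strand: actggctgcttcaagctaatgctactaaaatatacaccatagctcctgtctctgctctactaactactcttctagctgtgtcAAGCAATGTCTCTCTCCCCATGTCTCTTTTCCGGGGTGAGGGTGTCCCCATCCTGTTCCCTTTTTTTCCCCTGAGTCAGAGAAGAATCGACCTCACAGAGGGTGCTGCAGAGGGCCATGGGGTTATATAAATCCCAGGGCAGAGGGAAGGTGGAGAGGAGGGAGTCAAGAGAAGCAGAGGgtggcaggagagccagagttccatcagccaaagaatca
Mrc1, chr2:14229164-14229463, plus strand: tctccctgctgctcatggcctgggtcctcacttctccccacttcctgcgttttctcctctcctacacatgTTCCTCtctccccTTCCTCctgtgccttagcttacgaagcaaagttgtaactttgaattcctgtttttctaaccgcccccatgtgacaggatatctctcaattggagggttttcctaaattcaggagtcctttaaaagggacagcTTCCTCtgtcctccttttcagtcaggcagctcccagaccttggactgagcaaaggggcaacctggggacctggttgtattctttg
The Cd209f and Cd209g windows were 91.8% identical over 281 aligned bases. The AP-1 letters TGANTCA, searched on both strands, were present in 2 of the 7 listed members with a promoter entry, both times inside the shared run of Cd209f and Cd209g, and in 7.93% of all 27025 promoter windows of this length. The letters TATAAA stood 29 bases before the start of Cd209f and 43 bases before that of Cd209g, inside the same run. On either strand they were present in 3 of the 7 members, Cd209a among them, and in 14.2% of all windows. GAGGAA was present in 3 of the 7 members, with 3 matches in Mrc1, and in 28.3% of all windows. A match is a description of these letters and not a measured binding site.

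The kept barcodes had a median depth of 13892 UMIs (unique molecular identifiers, counted RNA molecules) in the TAC library and 9536 in the sham library, and a median mitochondrial share of 4.42% and 8.02%. The filter kept 70.2% of TAC and 34.9% of sham barcodes. Cells were grouped without the 8 genes, so that none of them placed a cell. The macrophage-like class held 2683 TAC and 2526 sham cells, the monocyte-like class 366 and 74. A dendritic-like name went to a cluster of 100 TAC and 415 sham cells through Tnip3, H2-DMb2 and Itgax, but Mmp12, Retnla, Ear2 and Fn1 led it and C1qa stood at 2955 and 3344 CPM (UMIs of the gene per 1000000 UMIs of the class), so it is called the Mmp12-led cluster here. The macrophages of the libraries also lay in different clusters. TAC cells made up most of cluster 12 (Gbp2b, Ccl8, interferon-induced genes), cluster 5 (Tnf, Ccl4) and cluster 4 (Top2a, Mki67, proliferation genes). Sham cells made up most of clusters 0 and 1, led by heat-shock genes such as Hspa1b, and of cluster 3 (Ltc4s, Vsig4, Lyve1). Markers of other cells differed too: the 14 neutrophil markers summed to 1493 CPM in TAC and 184 CPM in sham macrophage-like cells, with 12 of the 14 at least 1.5-fold higher in TAC, and the 16 monocyte markers to 418 and 109 CPM. The part of these differences in the values below was not tested, except where a value with them removed is given.

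In macrophage-like cells all 8 genes were lower in the TAC library. A gene was called lower or higher when the summed CPM differed at least 1.5-fold and both libraries together held at least 20 UMIs. By that rule 8 of 8 members were lower, beside 23.1% of all 12721 genes with enough UMIs, and the median log2 ratio was -2.33 for the members and -0.10 for all genes. Of all these genes 14.5% were higher. Median-of-ratios scaling moved that background to 17.6% lower and 18.9% higher and TMM scaling to 18.7% and 17.8%, with 8 of 8 members lower under both. Since the members were listed with this contrast known, the count is a description. Cd209b, Cd209d and Cd209g had 1, 14 and 18 UMIs in TAC cells, so they had enough UMIs only together with the sham library. Cd209b could pass only as lower. None of these genes is used as support for the count.

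**Figure D1:**
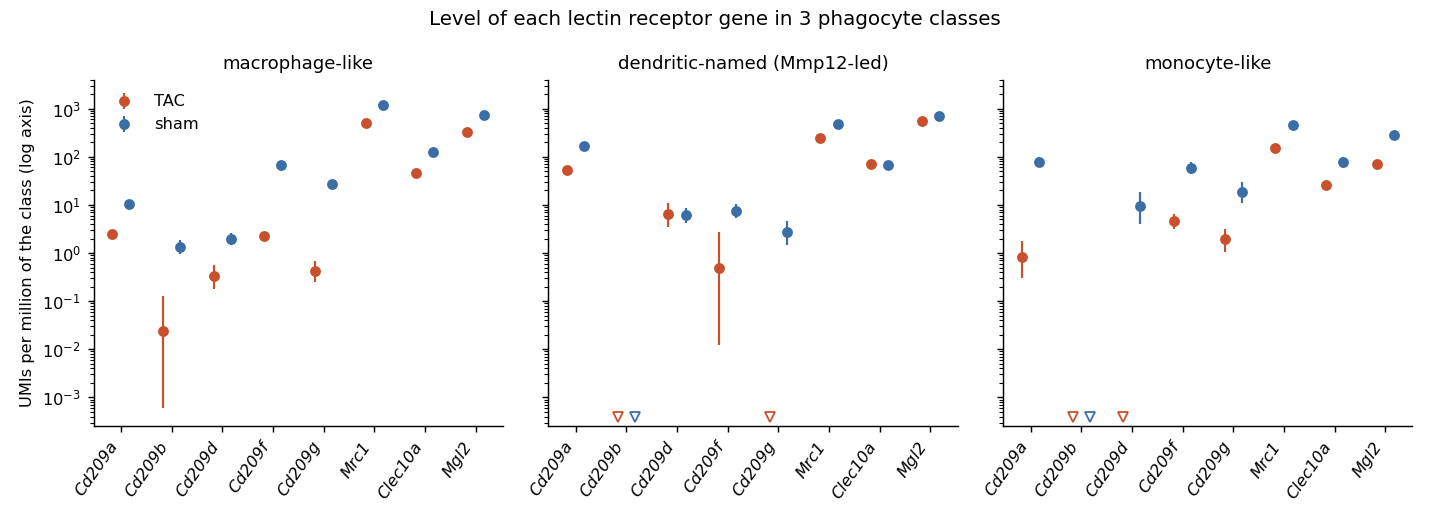
Level of each gene in CPM (log axis) in macrophage-like cells, the Mmp12-led cluster that took the dendritic name, and monocyte-like cells, TAC left of sham. Bars are 95% Poisson intervals and open triangles at the bottom mark 0 UMIs. In macrophage-like cells each TAC point lies under its sham point, and the gap is widest for the Cd209b, Cd209f and Cd209g genes.

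Mrc1, the mannose receptor, was measured at 499 CPM in TAC and 1212 CPM in sham macrophage-like cells, from 21259 and 30399 UMIs. The level was 2.43-fold lower in TAC (2.38 to 2.47). Mgl2 stood at 328 CPM in TAC and 738 CPM in sham cells, 2.25-fold lower (2.20 to 2.30). Clec10a, its neighbour on chromosome 11, stood at 47.1 CPM in TAC and 128 CPM in sham cells, 2.72-fold lower (2.57 to 2.88). These 3 genes thus differed by similar factors between the libraries.

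The Cd209 genes differed by more. Cd209f had 97 UMIs (2.28 CPM) in TAC macrophage-like cells and 1719 UMIs (68.5 CPM) in sham cells, 30.1-fold lower (24.5 to 37.3). Cd209g had 18 UMIs (0.423 CPM) in TAC and 678 UMIs (27.0 CPM) in sham cells, 63.9-fold lower (40.1 to 109). These 2 genes had the most UMIs of the 5 Cd209 genes in sham macrophage-like cells. Cd209a, the family member best known from mouse dendritic cells and monocyte-derived cells, had 104 UMIs (2.44 CPM) in TAC and 267 UMIs (10.6 CPM) in sham macrophage-like cells, 4.36-fold lower (3.46 to 5.52). Cd209d was counted 14 times in TAC and 49 times in sham cells, 5.94-fold lower (3.23 to 11.7). Cd209b, the receptor SIGN-R1 of splenic marginal zone macrophages, had 1 UMI in TAC and 34 UMIs in sham cells, a TAC to sham ratio of 0.0173 (0.000426 to 0.103).

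The broad genes and the Cd209 genes were spread over cells in different ways. Mrc1 had at least 1 UMI in 85.4% of TAC and 98.1% of sham macrophage-like cells, and the median cell held 3.26 and 11.1 Mrc1 UMIs per 10000. The range over the middle 80% of cells ran from 0 to 12.6 in TAC and from 3.77 to 21.4 in sham cells, so the libraries overlapped cell by cell. Cd209f, in contrast, had 0 UMIs in 99.3% of TAC and 91.1% of sham macrophage-like cells. It was found in 18 TAC and 224 sham cells, which held a mean of 5.39 and 7.67 UMIs each and up to 32 and 91 in a single cell. Fewer TAC cells held it (0.671% against 8.87%), and the level in the cells that did, 275 CPM in TAC and 695 CPM in sham, was lower in TAC as well. These TAC cells were deeper, at a median of 15347 UMIs against 9874.5 in sham, so a single UMI is a smaller CPM in TAC. The top 10 of them held 91.8% of the TAC UMIs. Of the 18 TAC cells with Cd209f, 8 had a single UMI. Cd209g was found in 10 TAC and 165 sham cells.

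**Figure D2:**
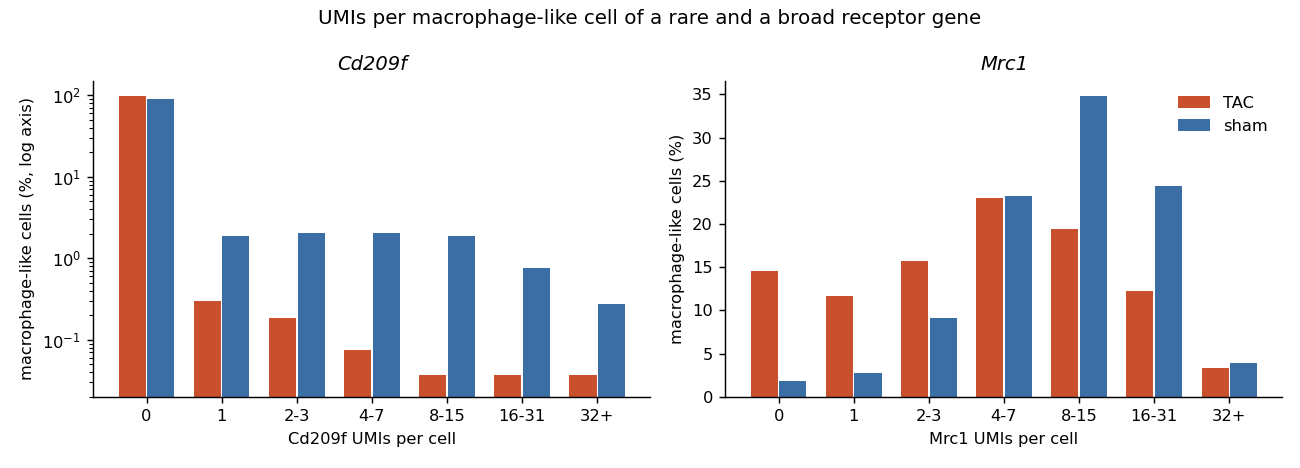
Share of macrophage-like cells (%) by the number of Cd209f UMIs (left, log axis) or Mrc1 UMIs (right, linear axis from 0) per cell, TAC left of sham in each pair. Cd209f was at 0 UMIs in 99.3% of TAC and 91.1% of sham cells with a long tail in sham cells, while Mrc1 counts were lower in TAC across the distribution, with 14.6% of TAC and 1.86% of sham cells at 0.

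Because TAC cells were sequenced more deeply (median 14128 UMIs in TAC and 8746 in sham macrophage-like cells), shares were also taken after drawing 1000 UMIs from each cell, which left out 1 TAC macrophage-like cell. At that depth Mrc1 was present in 34.4% of TAC (32.6 to 36.2, exact Clopper-Pearson interval) and 65.8% of sham (63.9 to 67.6) macrophage-like cells. Mgl2 was present in 21.7% of TAC and 45.5% of sham cells, Clec10a in 3.91% and 10.8%. Cd209f was present in 0.149% of TAC (0.0407 to 0.381) and 4.04% of sham (3.30 to 4.88) cells. Cd209g was found in 0 of 2682 TAC cells at that depth, which allows up to 0.112% of cells with a UMI after thinning (3 counts of the total, a one-sided limit), and in 1.58% of sham cells. Without thinning, 0.373% of TAC and 6.53% of sham cells held it. Other cell types, which should lack these receptors, held them in shares that varied widely. Among fibroblast-like cells, which had low shares, 1.21% of TAC and 5.21% of sham fibroblasts held Mrc1, 0.81% and 3.32% held Mgl2, and 0 and 0.474% held Cd209f, at median depths of 15140 and 8924.5 UMIs. Among T cell-like cells, 20.5% in TAC and 54.0% in sham held Mrc1, and 15.2% and 34.7% held Mgl2. Among B cell-like cells, 12 of 60 in TAC and 62.6% in sham (54.7 to 70.0) held Mrc1, and the sham interval overlaps that of macrophage-like cells. Cd209f was held by 0.673% of TAC and 2.0% of sham T cell-like cells. The TAC share of Cd209f in macrophage-like cells, 0.149%, was not above that of TAC T cell-like cells, so this share does not set the 2 classes apart. Without thinning, 18 TAC macrophage-like cells held it, with up to 32 UMIs in a cell. How much of it is background was not tested.

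**Figure D3:**
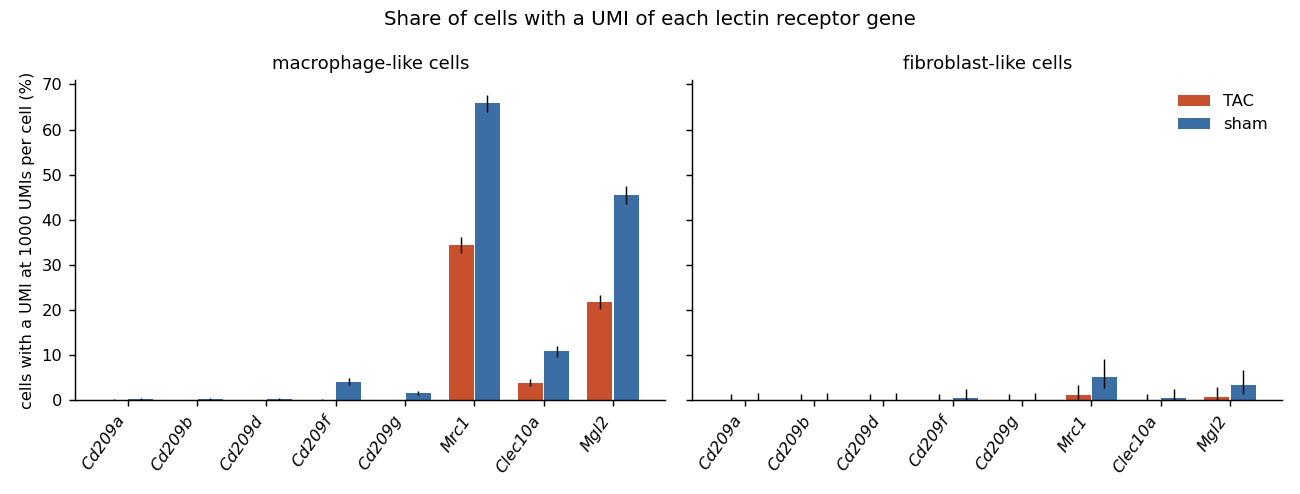
Share of macrophage-like (left) and fibroblast-like (right) cells with at least 1 UMI of each gene after thinning to 1000 UMIs per cell, TAC left of sham, with exact 95% intervals. Mrc1 and Mgl2 were found in 34.4% and 21.7% of TAC and in 65.8% and 45.5% of sham macrophage-like cells, and in at most 5.21% of fibroblast-like cells.

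Cd209f and Cd209g, the genes with the shared promoter run, were found in the same sham cells. At 3000 UMIs per cell, 82 of the 102 sham macrophage-like cells with Cd209g also held Cd209f (80.4%), against 3.37% of the cells without Cd209g. Only 7 TAC cells held Cd209f and 4 held Cd209g at that depth, with 1 cell holding both. Without thinning, 7 of the 10 TAC cells with Cd209g held Cd209f (70%), against 0.41% of those without Cd209g. The same shares in sham cells were 89.1% and 3.26%. The split of reads between these near-identical genes is uncertain, as given above. At 3000 UMIs per cell, 7 of the 8 sham macrophage-like cells with Cd209b held Cd209f, and without thinning 10 of 13 did. Over 16 profiles of a cluster in a library, which share libraries and depth, log2 levels of Cd209f and Cd209g had a Pearson r of 0.95, and Cd209f was the gene most like Cd209g among 3812 compared. The 224 sham cells with Cd209f were not confined to a single cluster: they made up 8.25% of sham cells in cluster 0, 8.56% in cluster 1 and 13.5% in the Lyve1-rich cluster 3, but 1.95% in the proliferating cluster 4.

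Within the sham library, macrophage-like cells with Cd209f also differed in other receptors from those without it. Clec10a stood at 256 CPM in cells with Cd209f and 114 CPM in cells without it (2.25-fold, 2.06 to 2.45). Lyve1, a hyaluronan receptor of vessel-associated resident macrophages, stood at 1466 and 975 CPM, and Folr2, a folate receptor, at 1653 and 1155 CPM. Mrc1 differed little, at 1370 and 1195 CPM, and Mgl2 at 787 and 732 CPM. Mki67, a proliferation gene, was lower in sham cells with Cd209f, at 19.0 against 101 CPM, but higher in the 18 TAC cells with Cd209f, at 255 against 105 CPM. The C1q genes C1qa, C1qb and C1qc differed by 1.17-fold or less. The cells with Cd209f had a median of 9874.5 UMIs and those without 8666.5, so depth differed too, and these cells were picked by a measured gene, so the values describe them only.

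Cd209a followed another pattern. Of its UMIs in all kept barcodes, 40.3% in TAC and 65.9% in sham lay in the Mmp12-led cluster, where it stood at 52.5 CPM in TAC and 169 CPM in sham cells (3.22-fold lower, 2.63 to 3.98). In monocyte-like cells it had 6 UMIs in TAC (0.826 CPM) and 66 in sham (77.6 CPM). In the proliferating macrophage cluster 4 it stood at 9.72 CPM in TAC and 87.9 CPM in sham cells. In the sham library its order by class was thus the Mmp12-led cluster, monocyte-like and then macrophage-like cells, with counting intervals that did not overlap. These intervals treat UMIs of the same cell as independent. The sham values rest on 65, 7 and 42 cells with Cd209a, and 10 cells held 82.4% of the macrophage-like UMIs. The sham order is thus a description of these cells only. In TAC the order was the Mmp12-led cluster, then macrophage-like cells at 2.44 CPM (2.0 to 2.96), then monocyte-like cells (0.303 to 1.80). The TAC values rest on 7 macrophage-like cells, 2 of which held 32 or more UMIs, and on 1 monocyte-like cell, so no order between these 2 classes is read from them. The 42 sham macrophage-like cells with Cd209a held more Ccr2, a receptor of monocyte-derived cells, at 218 CPM against 43.9 CPM in those without it. They also held more Mki67, at 333 against 87.3 CPM. More Ccr2 was not particular to them, since sham cells with Cd209f held it at 61.0 against 46.5 CPM in those without Cd209f. Cd209f was held by 3 of the 21 sham cells with Cd209a at 3000 UMIs (14.3%) and by 6.43% of those without it. Cd209d had the profile closest to Cd209a among the 8 members, with r of 0.80 over the 16 profiles.

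In the Mmp12-led cluster 3 of the 6 members with enough UMIs were lower in TAC and 0 were higher, beside 17.9% lower and 15.1% higher of 9734 genes. These were Cd209a, Cd209f, which had enough UMIs only through the sham library, with 1 UMI in TAC and 39 in sham cells, and Mrc1, at 247 CPM in TAC and 478 CPM in sham cells. Clec10a (71.8 and 66.7 CPM), Mgl2 (547 and 709 CPM) and Cd209d (6.44 and 6.07 CPM) stayed within 1.5-fold. Finer clustering sent 195 cells of this cluster to an Hspa1b-led cluster with the macrophage name, 182 to an unnamed Mmp12-led cluster (25 TAC and 176 sham cells) and 98 to an Xcr1-led cluster (55 TAC and 47 sham cells), Xcr1 being a marker of type 1 conventional dendritic cells. The Xcr1-led cells held Cd209a at 37.8 CPM in TAC and 79.0 CPM in sham, and the Mmp12-led cells at 109 and 264 CPM.

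In monocyte-like cells 6 of the 6 members with enough UMIs were lower in TAC, beside 17.2% lower and 20.9% higher of 9495 genes. Mrc1 stood at 156 CPM in TAC and 459 CPM in sham cells, Mgl2 at 69.8 and 282 CPM, Clec10a at 26.0 and 76.4 CPM, and Cd209f at 4.54 and 59.9 CPM. The sham class is small, with 74 cells, and 6 of them held all 51 Cd209f UMIs, while 2 of the 366 TAC cells held all 33. Cd209a and Cd209g, with 6 and 14 UMIs in TAC and 66 and 16 in sham cells, did not have enough UMIs in the TAC library alone. Macrophage RNA was present in this class: C1qa, C1qb and C1qc summed to 5916 CPM in TAC and 6050 CPM in sham monocyte-like cells. Without barcodes over 0.1% C1q UMIs, an alternative added after the data were seen, 3 members still had enough UMIs and all 3 were lower in TAC. That left only 205 TAC and 35 sham cells, so the count is a description. The part of macrophage RNA in the difference was not tested. With macrophage-like, Mmp12-led and monocyte-like cells pooled, 8 of 8 members were lower, beside 22.0% lower and 14.8% higher of 13089 genes. Cd209b, with 1 UMI in TAC and 34 in sham cells, could pass only as lower there too. Its place in that count is not used as support. Median-of-ratios scaling moved this background to 17.7% lower and 18.2% higher.

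Relative to the C1q genes, Mrc1 was lower in TAC in each of the 9 classes plotted, from 22.7 to 29.4 in TAC and from 54.3 to 79.8 in sham. The unnamed cells, at 55.3 in TAC and 71.2 in sham, and the cardiomyocyte-like cells, at 40.5 and 70.2, lay closer together. There were 24.7 Mrc1 UMIs per 1000 C1q UMIs in TAC and 71.8 in sham macrophage-like cells. The same quantity was 28.5 and 73.6 in T cell-like, 26.3 and 79.8 in B cell-like, 22.7 and 64.5 in fibroblast-like and 25.4 and 67.4 in endothelial-like cells. In monocyte-like cells it was 26.3 and 75.9, close to the macrophage value of each library. Cd209a did not keep such a ratio: it stood at 0.121 per 1000 C1q UMIs in TAC and 0.631 in sham macrophage-like cells, but at 6.24 and 19.2 in the Mmp12-led cluster and at 0.140 and 12.8 in monocyte-like cells.

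**Figure D4:**
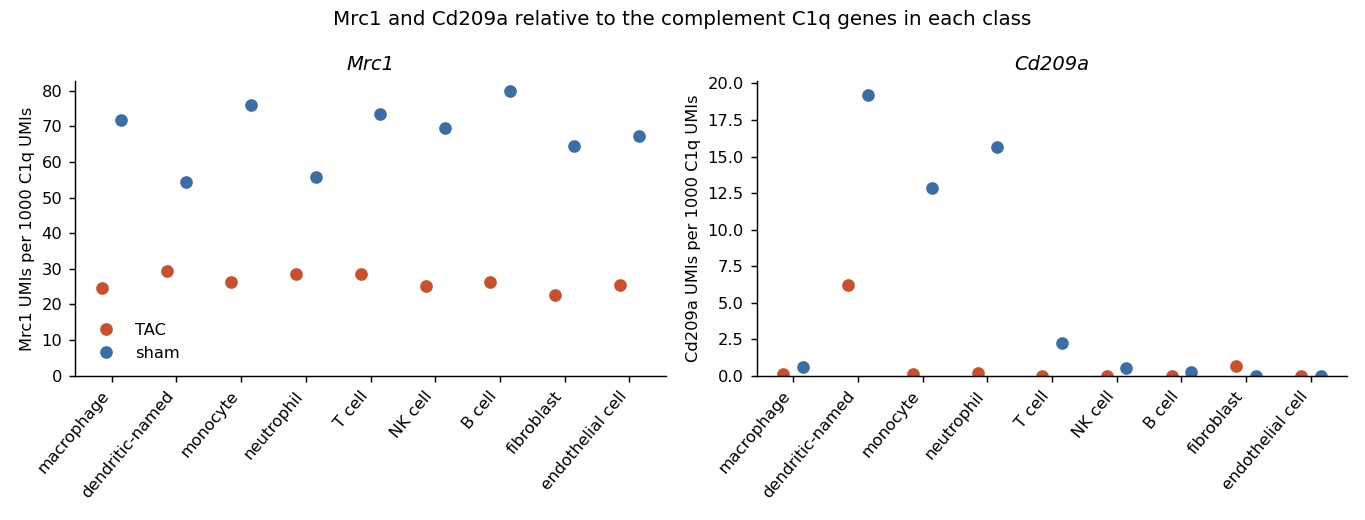
Mrc1 (left) and Cd209a (right) UMIs per 1000 UMIs of C1qa, C1qb and C1qc in each class, TAC left of sham. Mrc1 lies between 22.7 and 29.4 in the TAC classes and between 54.3 and 79.8 in the sham classes shown, while Cd209a peaks in the Mmp12-led cluster (dendritic-named) of both libraries.

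Within single clusters the members parted. Mrc1 stood at 1364 CPM in TAC and 1187 CPM in sham cells of cluster 0, at 1801 and 1538 CPM in cluster 3 and at 250.5 and 206 CPM in cluster 5, all within 1.5-fold and higher in TAC. Among the macrophage-like clusters it was past 1.5-fold lower in cluster 4 alone, at 361 and 855 CPM, and past 1.5-fold higher in cluster 13, at 946 and 507 CPM, where the sham library had 18 cells. Clusters 0, 3, 4 and 5 were those with at least 30 cells of each library. With their levels weighted by the sham library's UMIs, Mrc1 had a log2 ratio of 0.12, against -1.28 in the class sum. Clusters 1, 12 and 13 are left out, so the weighted value and the class sum cover different cells. Cluster 12 held 1199 TAC cells and cluster 1 held 853 sham cells. This weighting was added after the data were seen, and it turned the direction for Mrc1 alone among the members of the class with a value. Mgl2, Clec10a and the 4 Cd209 genes with a value stayed lower: Mgl2 was 1.62-fold, Cd209f 3.65-fold and Cd209g 10.1-fold lower under the same weights, and Clec10a 1.49-fold lower.

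In the Lyve1-rich cluster 3, which held 81 TAC and 563 sham cells, the contrast between the genes was plainest. Mrc1 was within 1.5-fold there, whereas Mgl2 stood at 405 CPM in TAC and 764 CPM in sham cells, Clec10a at 95.5 and 180 CPM, and Cd209f at 2.98 and 138 CPM, from 3 and 706 UMIs. Cd209g had 3 UMIs in TAC and 232 in sham cells of that cluster. In cluster 0 Cd209f stood at 29.3 CPM in TAC and 41.0 CPM in sham cells, within 1.5-fold, from 24 and 385 UMIs in 4 and 71 cells. In cluster 1, with 28 TAC and 853 sham cells, Cd209f had 0 UMIs in TAC and 614 in sham cells, at least 7.09-fold lower against a floor of 3 UMIs per library.

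**Figure D5:**
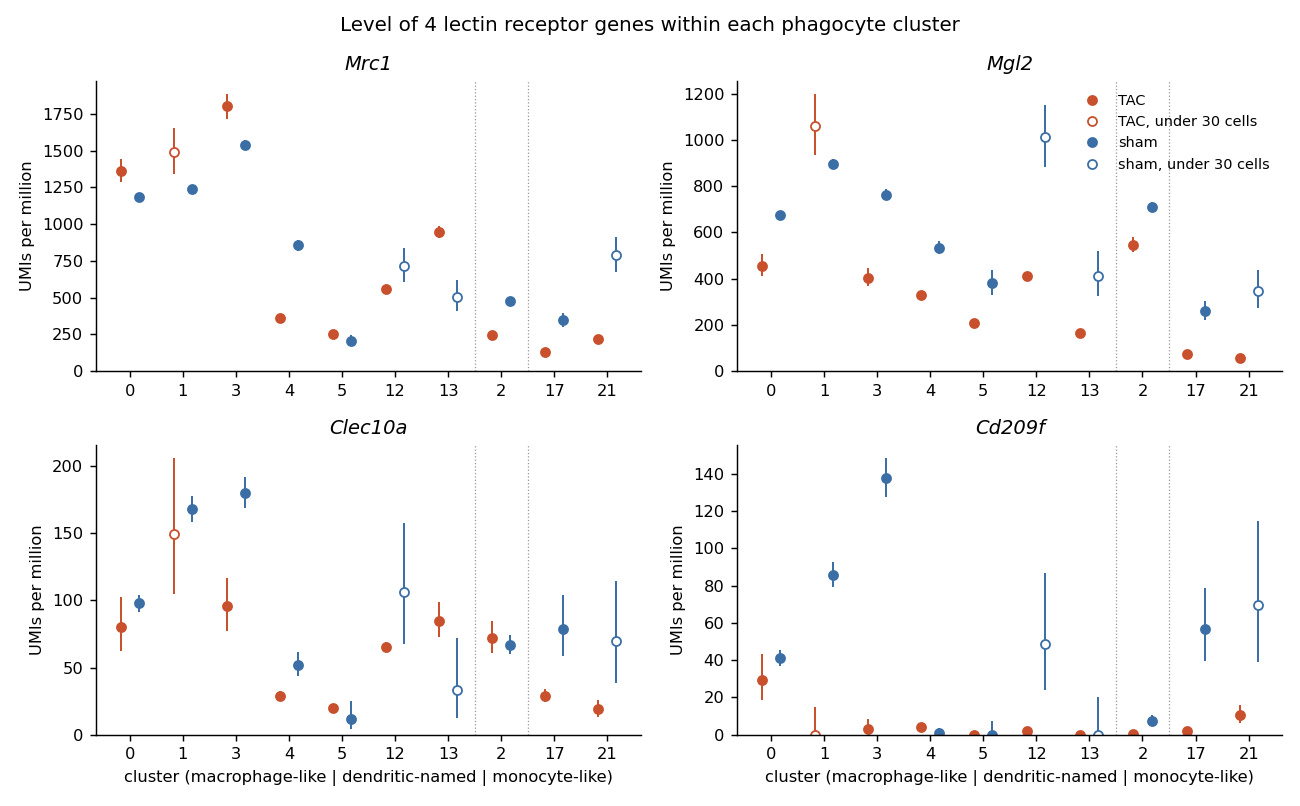
Level in CPM of Mrc1, Mgl2, Clec10a and Cd209f in each phagocyte cluster, TAC left of sham, with 95% Poisson intervals, linear axes from 0 and open points for under 30 cells. Mrc1 is as high or higher in TAC in clusters 0, 1, 3 and 5, while Mgl2 and Cd209f are lower in TAC in cluster 3.

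Other genes around these receptors were less uniform in macrophage-like cells. Of 21 related C-type lectins with enough UMIs, 3 were lower and 6 higher in TAC, with a median log2 ratio of 0.21. Over all genes in these cells, 23.1% were lower and 14.5% higher. Colec12, a scavenger receptor with a lectin domain, stood at 25.2 CPM in TAC and 111 CPM in sham cells, and Cd207 (langerin) at 2.70 and 9.25 CPM. On the other side, Clec4e (Mincle), which binds mycobacterial glycolipid, stood at 92.0 CPM in TAC and 19.6 CPM in sham cells, its partner Clec4d at 87.0 and 32.4 CPM, and Clec9a, which binds actin of dead cells, at 10.9 and 1.24 CPM.

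Of 19 other endocytic and scavenger receptors, 7 were lower and 5 higher, beside 23.1% and 14.5% of all genes, with a median of -0.31. The haemoglobin scavenger receptor Cd163 stood at 147 CPM in TAC and 446 CPM in sham cells, Stab1 at 193 and 524 CPM and Folr2 at 533 and 1204 CPM, while Marco stood at 5.45 and 2.39 CPM and Siglec1 at 38.7 and 22.6 CPM. Stab1 was also among the 5 genes whose profile over the 16 cluster profiles was most like that of Mrc1, with an r of 0.98, after Alox5 and Itsn1 at 0.99 and 0.98.

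Of 19 genes of interleukin-4, interleukin-13 and interleukin-10 signalling, 4 were lower and 6 higher, with a median of -0.09. The cytokine Il10 stood at 35.2 CPM in TAC and 8.65 CPM in sham cells. The shared receptor chain Il4ra, named after its values were seen, stood at 156 and 74.2 CPM. The transcription factors Klf4 and Maf stood at 410 and 270.5 CPM in TAC, against 1582 and 732 CPM in sham cells. Of 16 signalling partners 1 was lower and 3 higher, with a median of 0.21. Among the higher was the kinase Lyn, at 320.5 CPM in TAC and 172 CPM in sham cells. Of 14 lysosomal sugar-cleaving enzymes 2 were lower and 1 higher, with a median of -0.12. These list counts stand beside 23.1% lower and 14.5% higher of all genes, and none is read as a result about its list.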

How the data were processed

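The authors deposited raw UMI counts per gene and barcode, made with Cell Ranger 3.0 on mm10 per the submitters' processing notes. The sources used here give neither the cell calling nor the treatment of multi-mapped reads. Both libraries list 31053 features. Every barcode has the suffix 1, so GEM wells could not be told apart, and 7 kept barcode sequences occur in both libraries. The filter removed barcodes under 300 genes or over 10% mitochondrial UMIs, which left 90373295 TAC and 50738794 sham UMIs. No doublets were removed.

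Cells of both libraries were clustered together (scanpy 1.11.5, 2000 variable genes without the 8 members, 30 principal components, 15 neighbours, Leiden resolution 1). A cluster took a class name with at least 3 markers of the class among its 10 leading genes, more than of any other class. Otherwise it was named macrophage when at least 50% of 14 macrophage markers were each detected in at least 25% of its cells, thinned to 1000 UMIs. For that name no other class could have more markers than macrophage among the leading genes. This rule was set after clusters were seen, and other clusters stayed unnamed. The members, marker and gene lists were chosen with earlier results of these data known.

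UMIs were summed per class and library and scaled to 1000000 (CPM), with exact Poisson or conditional binomial 95% intervals. Folds against 0 use a floor of 3 UMIs. Shares have Clopper-Pearson intervals. List medians add 0.5 UMI to each count. All 8 members are named, and in each list at most 3 genes with the largest and 3 with the smallest ratio. Likeness is Pearson r of log2(CPM + 1) over cluster profiles of at least 30 cells, for members with at least 500 UMIs and genes reaching 50 CPM. Ratios, intervals and thinning were tested on simulated counts. Alternatives were other filters, scalings (edgeR 4.0.16 TMM, median-of-ratios size factors), clusterings, thinning and fold limits. Sequences are from RefSeq (GRCm38.p6) and GENCODE vM21, with Biopython 1.88.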

Additional observations from a re-analysis of the deposited data

Results flagged for a closer look

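Results are listed here where a member differed between the libraries in opposite directions in different clusters with at least 30 cells of each library. None of these differences was tested, since each group is 1 library. Cd209f was higher in TAC in the proliferating cluster 4, with a log2 ratio of 1.70, from 35 TAC UMIs in 4 cells and 3 sham UMIs in 3 cells, whereas it was lower in TAC in cluster 3. Its counting interval, a ratio of 1.02 to 16.5, treats UMIs of the same cell as independent.

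Clec10a was higher in TAC in the Tnf-led cluster 5, with a log2 ratio of 0.76, from 241 TAC and 6 sham UMIs, and its counting interval, a ratio of 0.766 to 4.66, includes no difference. It was lower in TAC in clusters 3 and 4.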

How the results depend on the processing

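The counts of members past 1.5-fold moved by more than 1.5 times in 6 of the 66 recomputed counts. In macrophage-like cells, thinning to 1000 UMIs before summing left 5 members with enough UMIs, all 5 lower. In monocyte-like cells thinning left 2, both lower, leaving out barcodes over 0.1% C1q left 3, and a limit of 5% mitochondrial UMIs left 4 with enough UMIs, of which 2 were lower and 1 was higher in TAC, so 3 were past the fold. That last limit left 6 sham monocyte-like cells. Fewer cells or UMIs are left by construction in each.

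Of 212 log2 ratios of single members recomputed in macrophage-like cells and in all mononuclear phagocytes, 2 turned direction: Mrc1 with clusters weighted as in the sham library, at 0.12 in macrophage-like cells and 0.029 in all mononuclear phagocytes. The other 210 stayed negative, but 95 of them moved beyond their counting interval, as did the 2 that turned. The weighting as in the sham library leaves out clusters with under 30 cells of a library, among them clusters 1 and 12. It put Clec10a within 1.5-fold and left 5 of 7 members with enough UMIs past it, in macrophage-like cells and in all mononuclear phagocytes. Cd209f ran from 3.65-fold to 80.7-fold lower and Cd209a from 2.72-fold to 53.4-fold lower in macrophage-like cells. Both upper ends came from the limit of 5% mitochondrial UMIs, which left 1558 TAC and only 43 sham macrophage-like cells. Median-of-ratios and TMM scaling kept 8 of 8 lower in macrophage-like cells, beside 17.6% and 18.7% of all genes. Shares of cells with a UMI were lower in TAC for all 8 members at each depth tried. The dendritic count had no value with the members among the variable genes or with each library clustered alone, where no cluster took that name in the TAC library. Thinning to 1000 UMIs left 4 members in it, 1 lower and 1 higher in TAC.

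No paired analysis was possible because each group is 1 library. Low counts limit Cd209b and Cd209d most, with 1 and 14 UMIs in TAC and 34 and 49 in sham macrophage-like cells.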

Other observations

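Barcodes left out for over 10% mitochondrial UMIs, 1839 in TAC and 6269 in sham with at least 300 genes, held the same genes. Mrc1 stood at 415 CPM in TAC and 905 CPM in sham barcodes of this kind, Mgl2 at 171 and 507 CPM, and Clec10a at 19.7 and 80.0 CPM. Cd209f had 2 UMIs in TAC and 1125 in sham, and Cd209g 1 and 353.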
